A study of Mus musculus with 12 samples.

Results

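The genes described here are 38 core genes of macroautophagy, taken by their symbols from the table of gene counts of splenic B cells with and without Runx1. All 38 symbols matched 1 Ensembl identifier each among 37991 in the table, and all 38 were among the 13538 genes with enough counts to be tested. Tfeb and Tfe3 carry the older names Tcfeb and Tcfe3 in the gene annotation of mouse genome mm9. The list holds 4 genes of the ULK initiation complex, 6 of the class III phosphatidylinositol 3-kinase (PI3-kinase) complexes, 5 for lipid transfer and binding of phosphatidylinositol 3-phosphate, 7 of the ubiquitin-like conjugation systems, 4 ATG4 proteases, 5 ATG8 proteins, 5 cargo receptors and 2 transcription factors.

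Resting B cells were purified from spleens of 8-wk-old C57BL/6 mice by negative selection, which removes non-B cells and CD43+ activated B cells. Runx1 c-k/o mice carried floxed Runx1 alleles, from which exon 4 is deleted, and a Cd23-Cre transgene that is first expressed at the transitional B cell stage. The Cre-only controls carried the Cd23-Cre transgene as well, so that Cre was present in all 4 groups. RNA of each genotype was sequenced at rest and at 3 h of culture with anti-IgM + IL-4, with 3 samples per group and 12 samples in total. No sample was cultured for 3 h without anti-IgM + IL-4. Effects of anti-IgM, of IL-4 and of the culture itself therefore cannot be told apart, and activation below means all of them together. Anti-IgM crosslinks the BCR and IL-4 is a T cell cytokine that sustains B cells.

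Macroautophagy encloses cytoplasm in a double membrane, the autophagosome, and delivers it to the lysosome. The ULK kinase complex starts the process when the nutrient-sensing kinase mTORC1 is low, the class III PI3-kinase marks the membrane with phosphatidylinositol 3-phosphate, and lipid is supplied by ATG9 vesicles and ATG2 bridges. A conjugation system related to ubiquitination then attaches ATG8 proteins (the LC3 and GABARAP families) to the membrane, where cargo receptors dock. TFEB and TFE3 are transcription factors of lysosomal and autophagy genes that mTORC1 holds in the cytoplasm. In B cells autophagy is known for its part in plasma cells and in the survival of memory B cells, and BCR signaling is known to activate mTORC1.

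The libraries held 14442251 to 23641552 counts on genes. Levels are given as normalized CPM, in which TMM factors adjust the library sizes, and levels of different genes are compared only as RPKM, the same value per kilobase of exon. The scaling is relative, and the table held 0 rows of the spike-in RNA that had been added. A lower or higher level is thus relative to the other genes and need not be a change in the amount per cell. Since RNA of whole samples was sequenced, less RNA of a gene per cell and fewer cells expressing it cannot be told apart either. Ribosomal protein genes took 5.96% to 7.03% of the counts in 10 libraries, but 8.90% in replicate 2 of the resting c-k/o cells and 9.97% in replicate 1 of the 3-h c-k/o cells. Runx1 counts cover all of its exons, so the loss of exon 4 could not be read from them. The level of Runx1 was 81.8 to 86.7 normalized CPM in Cre-only and 95.7 to 103 in c-k/o cells at rest. At 3 h it was 34.9 to 38.5 in Cre-only and 47.3 to 74.5 in c-k/o cells. The 8 B cell markers summed to 9360 to 10327 normalized CPM in resting and to 4804 to 5562 in activated samples. For the 7 myeloid markers these sums were 233 to 452 and 27.9 to 60.6. The 6 T cell markers summed to at most 6.02, the 4 NK cell markers to at most 11.3, the 4 erythroid markers to at most 123 and the 4 plasma cell markers to at most 439, and 0 of all these markers were at 0 throughout a group.

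In resting Cre-only cells, the levels of the 38 genes spanned 0.332 RPKM for Wipi1 to 85.5 RPKM for Map1lc3b, which encodes the most widely used LC3 protein. Gabarap, its relative, and Sqstm1, which encodes the cargo receptor p62, stood next to it at 84.5 and 83.9 RPKM, and their order is not resolved, since Map1lc3b alone ranged over 130 to 164 normalized CPM in the 3 samples. Uvrag, Tax1bp1 and Pik3r4 followed at 48.5, 41.6 and 39.2 RPKM. At the low end, Atg4c, Atg10 and Optn were at 1.83, 2.45 and 2.61 RPKM. The enzymes that act on ATG8 proteins, Atg3 (14.2 RPKM) and Atg7 (8.84 RPKM), were thus far below the most abundant ATG8 transcripts. Over all 38 genes, the summed level was 2889 to 2970 normalized CPM at rest and 2405 to 2436 at 3 h in Cre-only cells. It was 2918 to 2997 in resting c-k/o cells and 2246 to 2363 at 3 h, so that in each genotype every 3-h sample lay below every resting sample. Genes with high values weigh most in this sum, such as Tax1bp1, whose mean went from 275 to 166 in Cre-only cells. Of all single tested genes, 40.6% in Cre-only and 36.3% in c-k/o cells also lay wholly below at 3 h. Near-identical copies elsewhere in the genome (at least 95% identity over at least 200 bases) were found for Map1lc3b (4 copies), Gabarapl2 (3 copies), Atg4a, Sqstm1 and Ulk1 (1 each), and the levels of these genes are uncertain to that extent. Genes on the opposite strand share 43.9% of the exon length of Becn1, 31.1% of Atg4d and 17.3% of Sqstm1, and the strand setting of the counting is not given in the sources used here.

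The promoters of 4 genes of the list are shown as the 250 bases before the transcription start in RefSeq (GRCm38.p6), read in the direction of transcription. Tfeb had the greatest change on activation. Atg16l2 was the single gene called between genotypes in the reported analysis, though not in 7 of 13 alternatives. Atg3 held the single match of the list to the palindromic core of the CLEAR element of TFEB target genes. Atg9a is shown as 1 of 8 genes with a match to the core of the RUNX motif, and none of these 8 was called between genotypes in the reported analysis. Capitals mark these matches, which in Atg9a reads ACCACA, the same motif on the other strand.
Tfeb (chr17:47736787-47737036, plus strand): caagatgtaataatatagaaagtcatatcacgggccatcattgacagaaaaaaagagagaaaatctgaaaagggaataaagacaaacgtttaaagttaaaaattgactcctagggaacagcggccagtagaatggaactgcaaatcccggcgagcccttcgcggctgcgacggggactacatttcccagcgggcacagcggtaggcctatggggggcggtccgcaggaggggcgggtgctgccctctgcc
Atg16l2 (chr7:101302089-101302338, minus strand): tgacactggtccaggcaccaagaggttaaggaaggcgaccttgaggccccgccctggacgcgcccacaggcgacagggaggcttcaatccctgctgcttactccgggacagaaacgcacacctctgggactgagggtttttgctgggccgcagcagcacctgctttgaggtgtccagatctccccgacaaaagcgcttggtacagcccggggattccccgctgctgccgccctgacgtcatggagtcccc
Atg3 (chr16:45158579-45158828, plus strand): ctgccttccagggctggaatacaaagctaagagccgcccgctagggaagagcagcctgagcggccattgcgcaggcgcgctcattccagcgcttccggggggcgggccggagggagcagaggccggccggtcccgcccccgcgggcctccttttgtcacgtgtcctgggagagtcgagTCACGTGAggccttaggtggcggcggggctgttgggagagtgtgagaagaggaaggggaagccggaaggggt
Atg9a (chr1:75192011-75192260, minus strand): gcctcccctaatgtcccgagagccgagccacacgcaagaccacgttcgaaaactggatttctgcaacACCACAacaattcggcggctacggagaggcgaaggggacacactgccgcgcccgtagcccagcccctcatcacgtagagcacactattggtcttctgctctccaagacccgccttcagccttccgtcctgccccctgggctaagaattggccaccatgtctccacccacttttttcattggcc
Tfeb has 3 such windows, of which the one that starts first is shown. Windows were available for 32 of the 38 genes (39 windows in all), and both strands were searched. The CLEAR core TCACGTGA was in 1 of 39 windows, at 72 bases before the start in Atg3, and in 0.785% of 32851 windows of all genes. Its inner part, the E-box CACGTG, which every CLEAR core contains, was in 3 windows (Atg3, Atg5, Atg7), against 6.02% of all windows. The RUNX core TGTGGT was in 8 windows (Atg13, Atg4b, Atg4c, Atg4d, Atg9a, Nbr1, Sqstm1, Uvrag), that is 20.5%, against 14% of all windows. The FOXO motif GTAAACA was in 0 of the 39 and in 3.17% of all. These letter matches describe the sequence alone and no binding was measured.

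Most of the autophagy genes were lower after 3 h of activation in Cre-only cells. Of the 38 genes, 22 fell (57.9%) and 8 rose (21.1%), where over all 13538 tested genes 36.4% fell and 38.6% rose. The median log2 fold change of the 38 genes was -0.46, against 0.03 over all genes, and the range was -2.71 to 1.28. In Runx1 c-k/o cells, 22 fell and 6 rose (15.8%), where 36.6% of all genes fell and 37.7% rose, again with a median of -0.46, against 0.00 over all genes. A gene was called at an adjusted p under 0.05 in edgeR's quasi-likelihood test, adjusted by the Benjamini-Hochberg method over every tested gene. All 27 genes called in both genotypes had the same direction in both, 21 lower and 6 higher. Over all genes, 75% were called in Cre-only and 74.3% in c-k/o cells. Agreement in direction was not counted over all genes, so it is not shown to be particular to the list. Ambra1, Atg4d and Gabarap were called in Cre-only cells alone and Atg2a in c-k/o cells alone, and 7 genes (Ulk1, Pik3c3, Atg5, Atg12, Atg16l1, Atg4c and Sqstm1) were called in neither. Without resting c-k/o replicate 2, which stood apart, 28 genes of the list were called in c-k/o cells, where 10149 of 13836 tested genes were. Without 3-h c-k/o replicate 1, which also stood apart, 29 were called, where 10203 of 13816 tested genes were. The summed B cell and myeloid markers given above were also lower at 3 h, as were those of T and NK cells (at most 2.77 and 4.32 normalized CPM). Not every B cell marker fell. The mean of Cr2 went from 945 to 2021 in Cre-only and from 1318 to 2504 in c-k/o cells. That of Fcer2a went from 1097 to 1116 and from 997 to 1021. The plasma cell markers summed to 195 to 264 at rest and 286 to 348 at 3 h in Cre-only cells, and to 165 to 401 and 398 to 439 in c-k/o cells. Of these, the mean of Xbp1 went from 61.9 to 241 in Cre-only cells, and the means of Sdc1, Prdm1 and Jchain were lower at 3 h. The erythroid markers summed to 11.7 to 80.3 at rest and 3.46 to 42.9 at 3 h in Cre-only cells, and to 66.2 to 123 and 31.1 to 53.5 in c-k/o cells. The part of these markers in the changes was not tested.

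**Figure D1:**
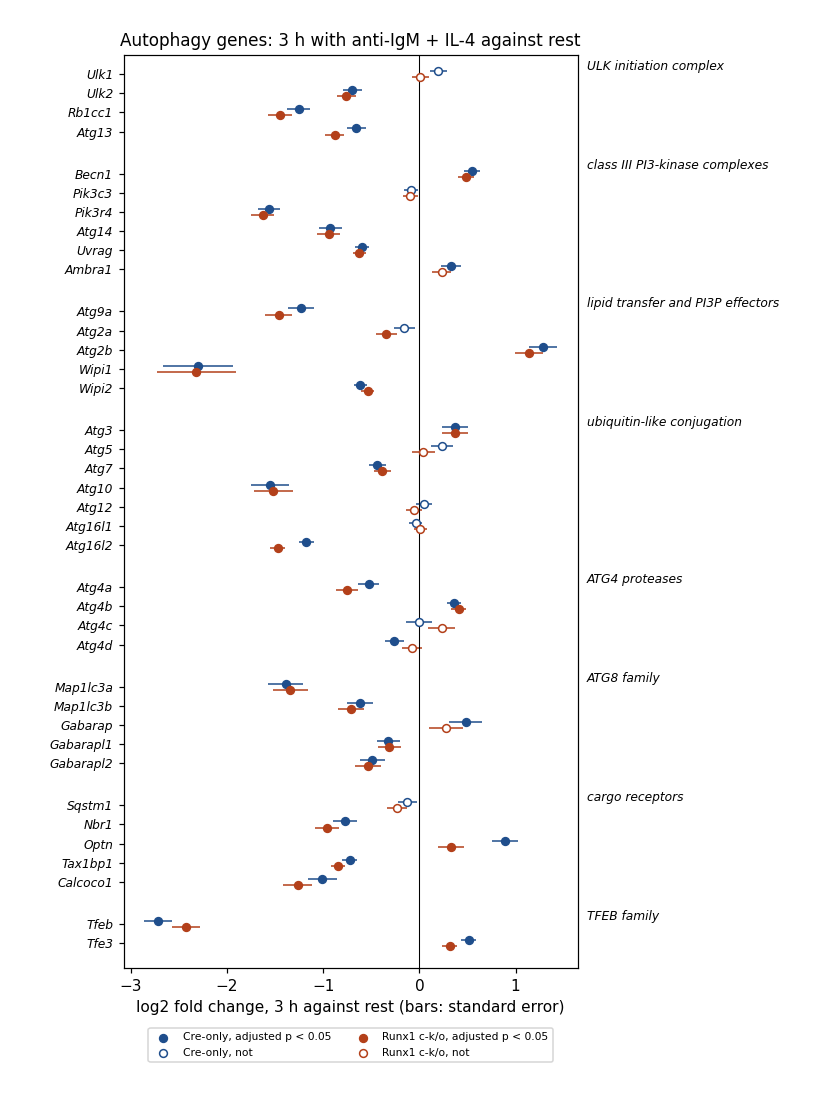
Log2 fold change of each of the 38 autophagy genes after 3 h with anti-IgM + IL-4 against rest (x axis), grouped by role, in Cre-only (blue) and Runx1 c-k/o (red) cells. Bars are standard errors and filled circles have an adjusted p under 0.05; most genes lie left of 0, from -2.71 for Tfeb, and the blue and red circles of a gene lie close together, with Atg2b farthest right at 1.28 in Cre-only cells.

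The transcription factors moved in opposite directions. Tfeb (Tcfeb, chr17:47873979-47929368 in mm9) was at 109, 111 and 107 normalized CPM in the 3 resting Cre-only samples and at 18.1, 15.4 and 16.2 at 3 h. The c-k/o samples went from 100, 105 and 101 to 19.8, 23.0 and 14.1. The activated samples lay far below the resting samples of their genotype, with no overlap. The fall was 6.57-fold in Cre-only cells (log2 fold change -2.71, SE 0.145, adjusted p = 2.08e-08 by edgeR) and 5.39-fold in c-k/o cells (log2 fold change -2.43, SE 0.144), the greatest fall of the 38 genes. Tfe3, a close relative with overlapping targets, rose from 35.6 to 40.2 normalized CPM at rest to 52.1 to 56.1 at 3 h in Cre-only cells (log2 fold change 0.51) and by 0.32 on the log2 scale in c-k/o cells.

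In the ULK complex, 3 of 4 genes fell in both genotypes. Rb1cc1, which encodes the large scaffold protein FIP200, was at 124, 132 and 131 normalized CPM in the resting Cre-only samples, and at 50.1, 56.7 and 54.9 at 3 h. The level in c-k/o cells went from 130, 102 and 129 to 36.4, 49.5 and 46.8, so that all 6 activated samples lay below all 6 resting ones. It fell by 1.26 (SE 0.124, adjusted p = 1.71e-06 by edgeR) and 1.45 (SE 0.126) on the log2 scale in Cre-only and c-k/o cells. Atg13, the adaptor that joins kinase and scaffold, fell by 0.65 and 0.88 on the log2 scale, and the kinase gene Ulk2 by 0.70 and 0.76. The other kinase gene, Ulk1, was called in neither genotype, with log2 fold changes of 0.20 in Cre-only (adjusted p = 0.0589 by edgeR) and 0.01 in c-k/o cells.

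The 6 genes of the class III PI3-kinase complexes were split. Pik3r4, which encodes the regulatory subunit VPS15, was at 186, 185 and 203 normalized CPM in the resting Cre-only samples, and at 69.2, 61.2 and 63.4 at 3 h. The c-k/o levels were 177, 198 and 197 at rest and 51.1, 71.9 and 62.0 at 3 h. The fall was close to 3-fold in each genotype, with a log2 fold change of -1.57 (SE 0.116, edgeR adjusted p = 1.55e-07) in Cre-only and -1.63 (SE 0.116) in c-k/o cells. Pik3c3, the catalytic subunit VPS34 that VPS15 holds, was between 54.8 and 65.4 in all 12 samples and its log2 fold change was -0.09 in both genotypes. Atg14, which directs the kinase to the forming autophagosome, fell by 0.92 and 0.94 on the log2 scale, and Uvrag, its counterpart in the endosomal form of the complex, by 0.59 and 0.62. Becn1, which encodes the shared subunit Beclin 1, rose by 0.55 and 0.49 on the log2 scale. Ambra1, a regulator of Beclin 1, rose in Cre-only cells (log2 fold change 0.33, edgeR adjusted p = 0.0102) and had a log2 fold change of 0.23 (edgeR adjusted p = 0.0552) in c-k/o cells.

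Of the lipid transfer and phosphatidylinositol 3-phosphate genes, Atg9a, Wipi1 and Wipi2 fell and Atg2b rose in both genotypes. Atg9a, the lipid scramblase of the vesicles that seed the membrane, was at 30.0, 30.0 and 29.7 normalized CPM in the resting Cre-only samples, and at 13.0, 12.3 and 12.7 at 3 h. Runx1 c-k/o samples went from 28.1, 25.1 and 26.8 to 7.40, 12.1 and 9.60. The Cre-only samples were almost equal within each time, and the change was -1.23 (SE 0.136, edgeR adjusted p = 4.26e-06) on the log2 scale, against -1.46 (SE 0.140) in c-k/o cells. Atg2b, one of the lipid bridges, was at 81.3, 83.6 and 83.8 normalized CPM in the resting Cre-only samples, and at 196, 209 and 201 at 3 h. The c-k/o levels were 79.4, 71.9 and 80.6 at rest and 125, 177 and 208 at 3 h. This was the greatest rise of the 38 genes, with a log2 fold change of 1.28 (SE 0.145, edgeR adjusted p = 5.34e-06) in Cre-only and 1.14 (SE 0.145) in c-k/o cells, and the 3-h c-k/o samples were spread much more widely than the Cre-only ones. The lowest of them was the library with the highest share of ribosomal protein counts.

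Atg2a, the other lipid bridge, was called lower in c-k/o cells (log2 fold change -0.35, edgeR adjusted p = 0.0136) and had a log2 fold change of -0.16 in Cre-only cells. The c-k/o call was lost in 2 of 14 alternatives, and in 1 more, with 1 factor of unwanted variation, the log2 fold change was 0.086. Wipi2, which binds phosphatidylinositol 3-phosphate and recruits ATG16L1, was at 110, 108 and 109 normalized CPM in the resting Cre-only samples, and at 72.3, 70.3 and 70.9 at 3 h. The corresponding c-k/o samples were at 114, 104 and 105 at rest and at 74.4, 73.6 and 74.0 at 3 h. The change was small but far outside the spread of the samples, at -0.62 (SE 0.0683, edgeR adjusted p = 4.35e-06) and -0.54 (SE 0.0684) on the log2 scale. Its relative Wipi1 was the lowest of the 38 genes, with 17 to 42 counts per resting and 2 to 7 per activated library, which is at the floor of 3 counts in some libraries. The fitted log2 fold changes of Wipi1, -2.30 and -2.32, rest on these few counts.

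In the conjugation systems, the genes of the central conjugate were little changed. Atg12, Atg5 and Atg16l1, whose products form the complex that places ATG8 proteins on the membrane, were not called in either genotype, with log2 fold changes between -0.06 and 0.24. Atg16l2, a homologue of Atg16l1 (chr7:108437906-108450765 in mm9), was at 76.6, 72.8 and 76.1 normalized CPM in the resting Cre-only samples, and at 32.2, 34.6 and 33.1 at 3 h. Runx1 c-k/o samples were at 73.3, 72.3 and 68.6 at rest and at 26.1, 26.9 and 24.2 at 3 h. It thus fell in both genotypes, by 1.18 (SE 0.0763, edgeR adjusted p = 5.84e-08) and 1.47 (SE 0.0775) on the log2 scale, with little spread within any group. Atg10, the enzyme that links ATG12 to ATG5, fell by 1.55 and 1.52 on the log2 scale, and Atg7, the activating enzyme of both systems, by 0.44 and 0.38. Atg3, the enzyme that transfers ATG8 proteins to lipid, was called higher in both genotypes (log2 fold change 0.37 in each). With the replicate number as a block within genotype, its edgeR adjusted p was 0.0537 in Cre-only and 0.0665 in c-k/o cells. The call was lost in 9 and 6 of 14 alternatives, and in 1 more of each the sign turned, to -0.21 and -0.24 with 1 factor of unwanted variation.

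Of the ATG4 proteases, which trim ATG8 proteins before conjugation and cut them off the membrane again, Atg4a fell by 0.53 and 0.75 on the log2 scale and Atg4b rose by 0.36 and 0.41. Atg4d fell in Cre-only cells by 0.26 on the log2 scale (edgeR adjusted p = 0.0342, and 0.0735 with the samples paired by number), with a log2 fold change of -0.08 in c-k/o cells, and Atg4c was called in neither.

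The ATG8 family did not move as one. Map1lc3a fell by 1.39 and 1.34 on the log2 scale, Map1lc3b by 0.62 and 0.71, and Gabarapl2 by 0.49 and 0.54. Gabarapl1 fell by 0.33 and 0.31, and in Cre-only cells its edgeR adjusted p of 0.0259 became 0.0547 with the samples paired by number. Gabarap went the other way in Cre-only cells, but its call was lost in 5 of 14 alternatives and its sign turned in 1 more, to a log2 fold change of -0.26 with 1 factor of unwanted variation. It was at 161, 163 and 144 normalized CPM in the resting Cre-only samples, and at 230, 216 and 207 at 3 h, a log2 fold change of 0.48 (SE 0.173, edgeR adjusted p = 0.0237). In c-k/o cells it was at 167, 223 and 163 at rest and at 295, 198 and 178 at 3 h, where the groups overlapped, with a log2 fold change of 0.28 (adjusted p = 0.164 by edgeR). There it was called with 1 factor of unwanted variation, without resting replicate 2 and without 3-h replicate 3. At both times the highest c-k/o sample was the library that stood apart by its ribosomal protein share, and the part of that share in the result was not tested.

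Among the cargo receptors, Tax1bp1, Nbr1 and Calcoco1 fell and Optn rose in both genotypes. Tax1bp1, a receptor for ubiquitinated cargo and an inhibitor of NF-kappaB signaling, was at 275, 277 and 273 normalized CPM in the resting Cre-only samples, and at 163, 171 and 164 at 3 h. The c-k/o samples were at 257, 247 and 260 at rest and at 151, 137 and 136 at 3 h. These samples again kept apart by time in each genotype, with log2 fold changes of -0.73 (SE 0.0746, edgeR adjusted p = 2.25e-06) and -0.85 (SE 0.0749). Nbr1, a receptor that works with p62, fell by 0.78 and 0.96 on the log2 scale, and Calcoco1, a receptor for the endoplasmic reticulum and Golgi, by 1.01 and 1.27. Optn, which encodes optineurin, a receptor for bacteria and damaged mitochondria, was at 8.10, 10.4 and 10.9 normalized CPM in the resting Cre-only samples, and at 17.8, 19.1 and 17.5 at 3 h, a log2 fold change of 0.89 (SE 0.133, edgeR adjusted p = 5.95e-05). In c-k/o cells it was at 9.55, 11.7 and 10.8 at rest and at 12.6, 12.5 and 15.0 at 3 h, a log2 fold change of 0.33 (SE 0.135, edgeR adjusted p = 0.0438) that lost its call in 10 of 14 alternative analyses. Sqstm1 was at 276 to 287 normalized CPM in resting and 245 to 276 in activated Cre-only cells. Its log2 fold changes were -0.12 in Cre-only and -0.23 in c-k/o cells (edgeR adjusted p = 0.293 and 0.0579), called in neither genotype. In Cre-only cells it was called with at least 10 counts in every sample, with 1 factor of unwanted variation and with only the groups compared. A c-k/o call appeared with DESeq2 size factors, the DESeq2 Wald test, the 10-count filter and 1 factor of unwanted variation. It also appeared without resting replicate 1 and without 3-h replicate 1.

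**Figure D2:**
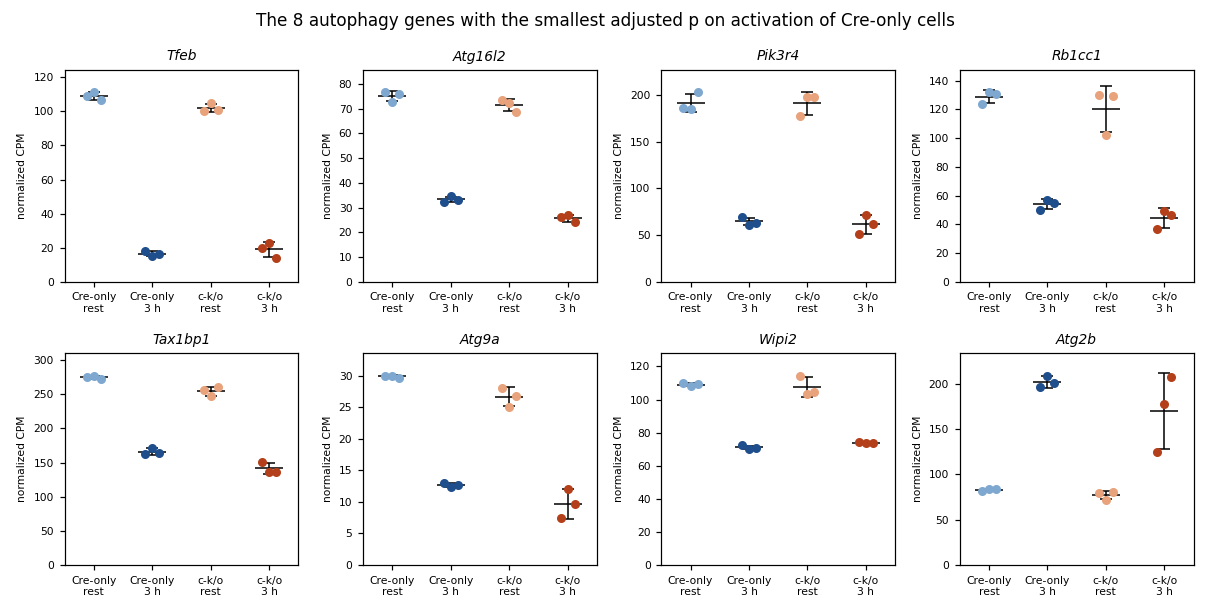
Normalized CPM (y axis, from 0) in each of the 12 samples for the 8 autophagy genes with the smallest adjusted p on activation of Cre-only cells, with the mean and SD of the 3 samples of each group. In all 8 the resting and the 3-h samples of a genotype do not overlap; 7 genes are lower at 3 h and Atg2b is higher, with 3-h c-k/o samples at 125, 177 and 208.

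Related genes that moved apart changed their balance within the cell population. The ratio of a pair of genes within a library does not depend on the scaling, and ratios per exon length were computed for 6 pairs of relatives that were chosen after their values were seen, so that they are a description with no test. The Tfe3/Tfeb ratio was 0.213 ± 0.0117 (SD, n = 3) in resting and 2.01 ± 0.153 in activated Cre-only cells, a 9.43-fold change. In c-k/o cells it was 0.243 ± 0.0101 and 1.71 ± 0.483, a 7.01-fold change. Tfeb was thus the more abundant of these transcripts at rest and Tfe3 at 3 h in every library. Gabarap/Map1lc3b went from 0.993 ± 0.0732 to 2.12 ± 0.0669 in Cre-only and from 1.09 ± 0.102 to 2.14 ± 0.181 in c-k/o cells. Atg2b/Atg2a went from 0.629 to 1.71 in Cre-only and from 0.600 to 1.65 in c-k/o cells. Ulk1/Ulk2 went from 0.636 to 1.18 and from 0.638 to 1.08, so for each of these pairs the leading transcript at 3 h was the one that rose or was not called. The length used is that of all annotated exons of a gene together, not of the transcript expressed. Which gene of a pair leads is therefore uncertain where a ratio is near 1. Atg4b/Atg4a went from 1.37 to 2.52 and from 1.34 to 2.97. Atg16l1/Atg16l2 went from 0.461 to 1.01 in Cre-only and from 0.475 to 1.33 in c-k/o cells. In this last pair the 3-h samples of the genotypes did not overlap, at 0.933 to 1.07 in Cre-only and 1.23 to 1.47 in c-k/o cells. The same held for Atg4b/Atg4a, at 2.47 to 2.56 in Cre-only and 2.67 to 3.17 in c-k/o cells. Ulk1/Ulk2 was lower in c-k/o cells, at 1.16 to 1.21 in Cre-only and 1.07 to 1.09 in c-k/o cells, again with no overlap.

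**Figure D3:**
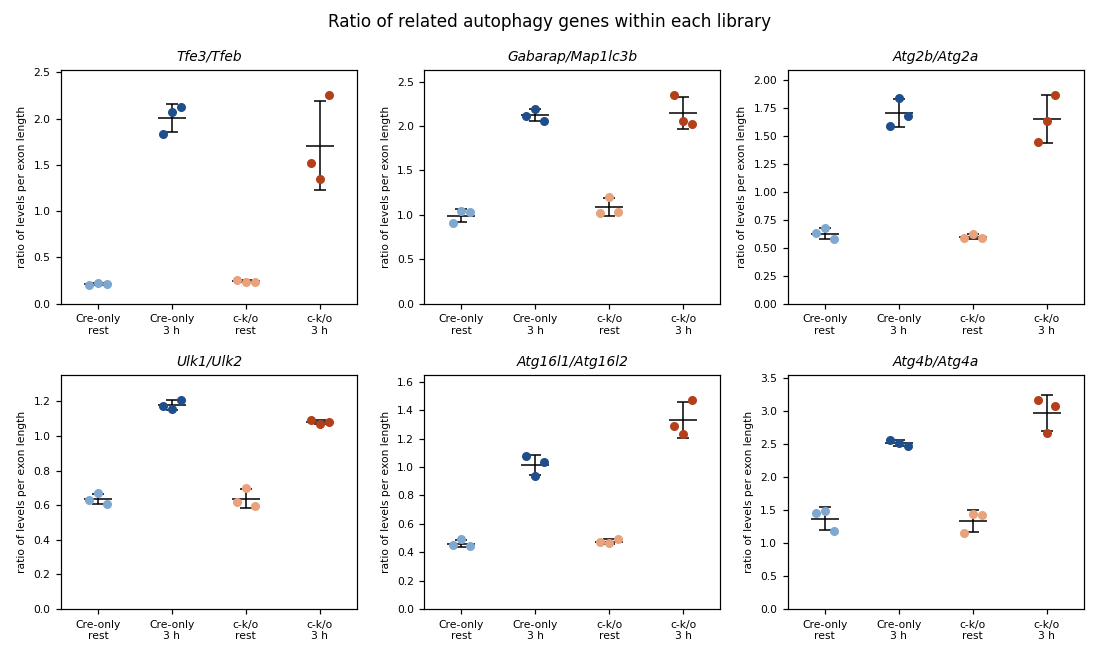
Ratio of levels per exon length (y axis, from 0) within each of the 12 libraries for 6 pairs of related autophagy genes, with the mean and SD of the 3 samples of each group. In each panel all 3-h samples lie above all resting samples, and for Tfe3/Tfeb the Cre-only mean goes from 0.213 to 2.01. For Atg16l1/Atg16l2 the 3-h c-k/o samples (1.23 to 1.47) lie above the 3-h Cre-only samples (0.933 to 1.07). They also lie above them for Atg4b/Atg4a, and below them for Ulk1/Ulk2.

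No autophagy gene was called between the genotypes at rest. Of the 38 genes, 0 passed edgeR's quasi-likelihood test at rest, where 1.49% of all genes did, and 0 passed the Wald test of DESeq2. At an unadjusted p under 0.05 there was 1 (2.63%, against 11.1% of all genes), Gabarapl1, at 19.7 to 25.2 normalized CPM in Cre-only and 15.5 to 20.0 in c-k/o cells (log2 fold change -0.35, edgeR adjusted p = 0.265). The log2 fold changes of all 38 lay between -0.35 and 0.25 with a median of -0.03. In 7 genes all 3 c-k/o samples lay below all 3 Cre-only samples (Ulk1, Ulk2, Atg9a, Atg2b, Nbr1, Tax1bp1 and Tfeb), against 11.6% of all genes, and in 4 genes above (Atg3, Gabarap, Gabarapl2 and Sqstm1), against 12%. Without c-k/o replicate 2 these counts were 8 and 6, against 18.7% and 16.4% of all genes.

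At 3 h, Atg16l2 was the single gene of the list called between genotypes. Its mean level was 33.3 ± 1.19 normalized CPM (SD, n = 3) in Cre-only and 25.7 ± 1.39 in c-k/o cells, all 3 c-k/o samples lay below all 3 Cre-only samples, and the difference was -0.37 on the log2 scale (SE 0.0772, edgeR adjusted p = 0.0236). The call was lost in 7 of 13 alternative analyses, where the log2 fold change stayed between -0.40 and -0.33 and the adjusted p ranged from 0.00338 to 0.193. The calls were thus 1 of 38 genes (2.63%), where 2.77% of all genes were called. With 1 factor of unwanted variation they were 6 of 38 (15.8%), where 7.84% of all genes were called. At an unadjusted p under 0.05 there were 10, or 26.3%, where 16.2% of all genes passed in either direction and 8.83% were lower. They were Ulk1, Rb1cc1, Atg13, Atg9a, Atg16l2, Gabarapl1, Nbr1, Optn, Tax1bp1 and Calcoco1, all lower in c-k/o cells. Ulk1 was at 42.3 to 45.4 normalized CPM in Cre-only and 31.5 to 38.5 in c-k/o cells (log2 fold change -0.31, edgeR adjusted p = 0.0885). Optn had a log2 fold change of -0.44 (edgeR adjusted p = 0.114). At 3 h the summed plasma cell markers given above were higher in every c-k/o than in every Cre-only sample. By their 3-h means in Cre-only and c-k/o cells, Xbp1 (241 and 327) and Jchain (64.0 and 87.6) were higher in c-k/o cells. Sdc1 (3.98 and 3.41) and Prdm1 (7.45 and 6.70) were lower. The part of these markers in the differences between genotypes was not tested.

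The order of the samples was also counted, with no test. In 14 genes (36.8%) all 3 c-k/o samples at 3 h lay below all 3 Cre-only samples, against 12.3% of all genes, and in 3 (Wipi2, Atg7 and Atg4c) above, against 9.5%. The 14 were all 4 genes of the ULK complex (Ulk1, Ulk2, Rb1cc1 and Atg13), Ambra1, Atg9a, Atg2a, Atg16l2, Atg4a, Gabarapl1, Nbr1, Optn, Tax1bp1 and Tfe3. Without c-k/o replicate 1, whose ribosomal protein share stood apart, the counts were 18 and 3, against 19% and 14.9% of all genes. Such genes were commoner among long transcripts: 5.59% of the third of tested genes with the shortest exon length had all c-k/o samples below, 11.7% of the middle and 19.6% of the longest. Of the 38 autophagy genes 7 were in the short, 16 in the middle and 15 in the long class, with 1, 5 and 8 of them below. Without c-k/o replicate 1 the shares of all genes were 13.6%, 20.2% and 23.1%, with 4, 5 and 9 autophagy genes below. The part of length in the result was not tested.

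**Figure D4:**
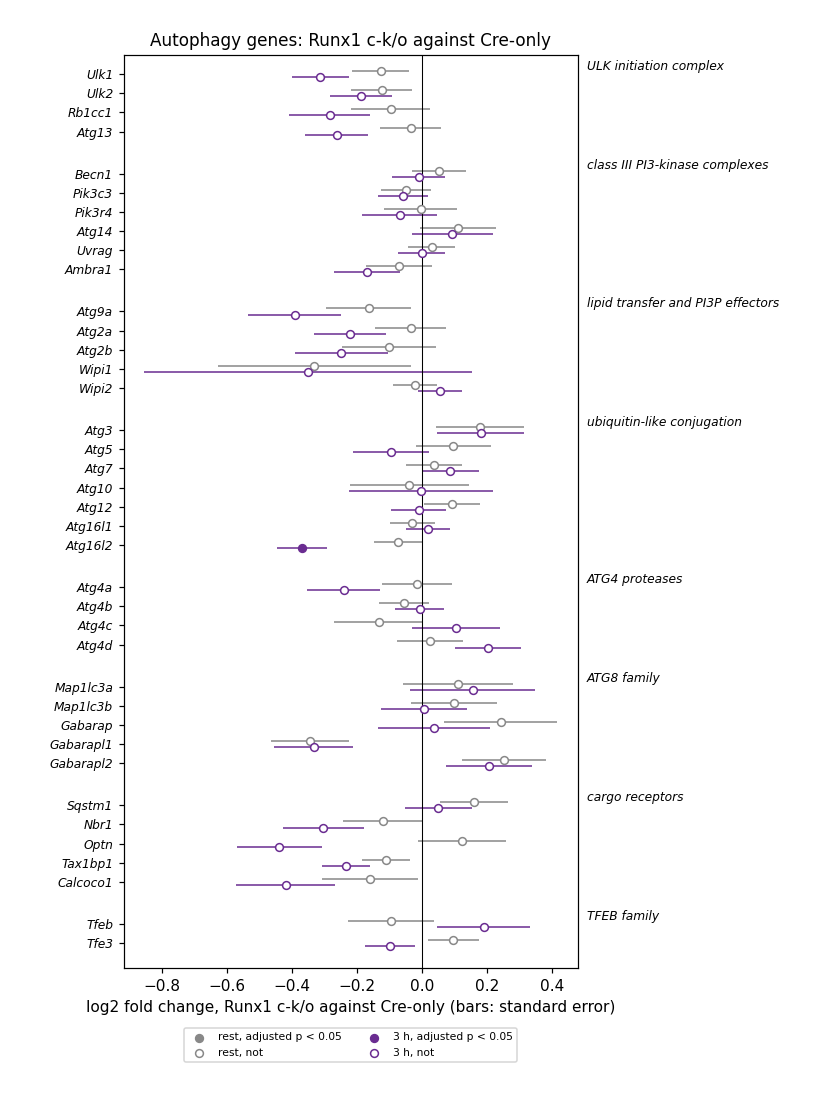
Log2 fold change between genotypes, c-k/o relative to Cre-only (x axis), for each of the 38 autophagy genes at rest (gray) and at 3 h (purple), grouped by role, with standard errors as bars and filled circles at an adjusted p under 0.05. The filled circle is Atg16l2 at 3 h (-0.37); all other circles are open, and the 4 ULK complex genes lie left of 0 at both times.

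The difference between the genotypes' responses was tested as an interaction. Of the 38 genes, 0 passed edgeR's test, where 0.0813% of all genes did, and 0 passed with DESeq2. At an unadjusted p under 0.05 there were 2 (5.26%, against 5.07% of all genes). These were Optn, with an interaction of -0.56 (SE 0.190) on the log2 scale and an edgeR adjusted p of 0.693, and Atg16l2, with -0.30 (SE 0.107) and 0.742. The genes called in one genotype alone (Ambra1, Atg4d, Gabarap and Atg2a) had interactions of -0.10, 0.18, -0.20 and -0.19 with edgeR adjusted p of 0.999 each, so a different response of the genotypes was not shown for them. For 3 samples against 3, the smallest p an exact permutation test allows is 0.1.

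Genes around this core moved as follows on activation of Cre-only cells, where 38.6% of all genes rose and 36.4% fell. Of 10 further factors of autophagosome formation, 3 rose (30%) and 6 fell (60%), among them Rubcn (log2 fold change -3.05), an inhibitor of the class III PI3-kinase, Tecpr1 (-1.59), Sh3glb1 (-0.93) and Tmem41b (1.32). Of 15 genes for fusion with the lysosome, 7 rose (46.7%) and 5 fell (33.3%), with Lamp2 at 0.99 and Vps33a at 0.86, and with Stx17, the SNARE of the autophagosome, at -1.51 and the adaptor Plekhm1 at -1.35. Of 11 receptors and regulators of mitophagy and ER-phagy, 4 rose (36.4%) and 5 fell (45.5%), with the ferritin receptor Ncoa4 at 1.10, and the mitophagy genes Pink1 at -1.79 and Bnip3l at -1.53, and Retreg1 at -1.06. Of 27 inputs to mTORC1 and AMPK, 15 rose (55.6%) and 5 fell (18.5%), with Rragd, an mTORC1-recruiting GTPase, at 3.34, Sesn2 at 1.81, the mTOR subunit Mlst8 at 1.47 and Sesn1 at -3.62. Of 9 other transcription factors of autophagy genes 2 rose (22.2%) and 7 fell (77.8%), with Foxo1 at -2.06, Foxo4 at -1.65, Foxo3 at -1.56 and Trp53inp2, a nuclear cofactor, at -2.51. In c-k/o cells the counts of genes that rose and fell were 3 and 6, 6 and 6, 3 and 5, 14 and 5, and 1 and 7 in the same order, where 37.7% of all genes rose and 36.6% fell. Between genotypes 0 genes of these lists passed edgeR's test at rest, where 1.49% of all genes did. At 3 h 1 gene of all these lists passed, where 2.77% of all genes did. It was Plekhm1, at 70.5 ± 1.92 normalized CPM (SD, n = 3) in Cre-only and 48.4 ± 5.34 in c-k/o cells (log2 fold change -0.54, edgeR adjusted p = 0.00815).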

How the data were processed

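RNA of 12 samples was measured by sequencing, in 4 groups of 3 given by the labels. From stranded poly(A)+ libraries the authors obtained paired reads, mapped these to mm9 by TopHat2 2.0.11 with Ensembl annotation and ran featureCounts. The deposited table gives the raw read count of each gene and sample. The strand setting and the handling of reads with several alignments are not given in the sources used here. The study describes the replicates as biological.

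Genes were kept by filterByExpr of edgeR 4.0.16 (minimum of 10 counts), which left 13538. After TMM scaling, edgeR's robust quasi-likelihood model with 1 term per group was fitted to the 12 samples together, p-values were adjusted by Benjamini-Hochberg over every tested gene, and the threshold was 0.05. A count of 3, the detection floor, equals 0.127 to 0.208 CPM and covers counting error only. R 4.3.3, Python 3.11.15 and pandas 2.3.3 were used. Gene coordinates and exon lengths are from the GENCODE annotation of mm9, copies from minimap2 2.31, and promoters from RefSeq. The fit was tested on simulated data.

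All 38 genes could be named. Sample values were given for the 8 with the smallest adjusted p on activation and for genes called by genotype, and additionally for Gabarap, Optn and other genes picked after their values were seen. From each list of further genes up to 4 called genes were named. Members and lists were chosen with earlier results of these data known. Same-numbered resting and 3-h samples deviated together in Cre-only cells (correlations of 0.275, 0.176 and 0.144 over genes) but not in c-k/o cells (-0.254, -0.264 and 0.254), so blocked values are given beside the Cre-only calls they change. Alternatives were DESeq2 size factors, no filter, a filter of 10 counts or more in each sample, DESeq2 1.42.0 (Wald test), 1 RUVs factor for unwanted variation (the study used RUV factors of unstated number), the replicate block, only the groups compared, and each sample left out. Counts without the c-k/o libraries that stood apart in their ribosomal protein share were added after seeing the data.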

Additional observations from a re-analysis of the deposited data

How the results depend on the processing

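Across the alternatives, 27 to 35 of the 38 autophagy genes were called on activation of Cre-only cells and 24 to 29 on activation of c-k/o cells, 0 between genotypes at rest and 0 in the interaction. In Cre-only cells 8582 of 13538 genes were called with 1 factor of unwanted variation (27 of the list) and 10908 of 12986 with only the groups compared (35). In c-k/o cells 8676 of 12843 were called with only the groups compared (24) and 10203 of 13816 without 3-h replicate 1 (29). Between genotypes at 3 h, in place of 1 gene, 0 were called with DESeq2 size factors, with no filter on low counts, with the replicate block and with only the groups compared, 2 with the Wald test of DESeq2 (Ulk1 and Atg16l2), where 5.24% of all genes were called, and 6 with 1 factor of unwanted variation (Ulk1, Atg9a, Atg16l2, Nbr1, Optn and Tax1bp1), where 7.84% were called, against 2.77% in the reported analysis. Leaving out 1 sample gave 0 to 2. There were 0 without any 1 of the 3-h Cre-only samples, where 1.3% to 1.65% of all genes were called. There were 2 without c-k/o replicate 2 (Atg9a and Atg16l2), where 1.88% were called, or 3 (Ulk1 and Atg16l2), where 4.47% were. With 1 factor of unwanted variation the log2 fold change on activation changed sign for some genes called in the reported analysis. These were Gabarap (-0.26) and Atg3 (-0.21) in Cre-only cells and Atg3 (-0.24) and Atg2a (0.086) in c-k/o cells, and none of these 4 passed the threshold there. The factor also added calls, for Ulk1, Atg2a and Sqstm1 in Cre-only cells and for Ambra1, Atg5, Gabarap and Sqstm1 in c-k/o cells. In all, 7 genes were then called higher and 20 lower in Cre-only cells, and 5 and 23 in c-k/o cells. By these totals some of the added calls had changed sign as well. The causes were not tested. With the replicate block within genotype, 27 genes were called in Cre-only cells (without Atg3, Atg4d and Gabarapl1) and 25 in c-k/o cells (without Atg3, Gabarapl1 and Optn). Over all 13538 genes, 9736 and 9601 were called there. With the replicate number as a block over all groups, 30 and 27 of the list were called (Gabarapl1 was lost in c-k/o cells), where 10036 and 9890 of all genes were. In c-k/o cells the numbers were not shown to pair the samples. With at least 10 counts in every sample, 37 of the 38 were tested, Wipi1 being left out. Depth limits Wipi1, with 2 to 42 counts per library.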
